A study of Mus musculus with 25 samples.

Results

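The epidermal differentiation complex is a gene-dense stretch of mouse chromosome 3 that holds the families encoding the outer shell of the skin. Its members were taken as every gene of the count table whose symbol begins with Sprr, Lce or S100a followed by a digit and that had at least 10 counts in 1 or more of the 21 RNA libraries. This rule gave 48 of 24061 genes: 13 Sprr, 21 Lce and 14 S100a genes. A further 2 symbols fitted the name rule, Sprr2a1 and Sprr2a2, and were at 0 counts in all 21 libraries. All 48 members lay on chromosome 3 between bases 90511034 and 93564645 of GRCm38.p6 (mm10), a span of 3.05 Mb that holds 101 annotated genes, 70 of them protein-coding.

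When a keratinocyte leaves the basal layer of the epidermis it builds a cornified envelope, a sheet of proteins cross-linked beneath its membrane by transglutaminases. The small proline-rich proteins (Sprr) are short cross-linking substrates that are known to be made in quantity in stressed, wounded and hyperplastic epidermis, and the late cornified envelope proteins (Lce) are laid down at the end of differentiation. The S100a genes encode small calcium-binding proteins: S100a8 and S100a9 form calprotectin, which neutrophils carry in bulk and which injured keratinocytes are also known to make, while others, such as S100a4 and S100a6, are made by many cell types.

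The study compared skin stem cells of tumours, wounds and resting skin by RNA sequencing of sorted cells (21 libraries, female B6 mice; postnatal day 60 for the 15 skin libraries, with no age given for the 6 tumour libraries) and by ATAC-seq, which reads open chromatin (4 populations, female CD1/B6 mixed mice). The DS libraries, named by a prefix of their titles as are the other sets, held cells of grafted tumours sorted as GFP+ and as high or low for integrin alpha 6, with 1 library for each gate of HRas, HRas TbrKO and TbrKO tumours. They also held 1 library of hair follicle stem cells (HFSC; lineage negative, integrin alpha 6 high, CD34+ Sca1-) and 1 of epidermal stem cells (EpdSC; the same gate but CD34- Sca1+) whose titles carry Tbr, a label that is not spelled out. The CL libraries held 2 replicates, A and B, of 4 groups: the wounded HFSC lineage (lineage negative, integrin alpha 6 high, YFP+ in Sox9CreER;R26-YFP mice), wounded EpdSC (the YFP- cells of the same kind of sort), HFSC and EpdSC, sorted as above. The BK libraries held 1 library of wounded EpdSC (lineage negative, integrin alpha 6 high, with no YFP gate), 2 of HFSC and 2 of EpdSC. Sox9CreER marks cells by their use of Sox9, so a YFP- cell is any cell of the gate that was not marked, and the sort gate changed with wounding in each wound comparison. For ATAC-seq, tumour cells were integrin alpha 6 high, beta 1 high and GFP+ cells of oncogenic HRas squamous cell carcinomas, wound cells were integrin alpha 6+ Sca1+ cells of full- and partial-thickness wounds, and HFSC and EpdSC came from back skin at postnatal day 50.

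Library totals ran from 14216472 to 36425082 counts, and the members took 0.247% to 1.17% of the counts of a library. Levels are given as CPM, counts relative to library size scaled together over the 21 libraries with TMM factors, so they compare a gene between libraries and not 1 gene with another, since gene length enters them. No label ties replicates to different animals, and the p-values rest on a spread between libraries that may be technical. In sorted bulk samples fewer cells of a type and less RNA per cell cannot be told apart. Tumours and wounds lie in different sets, where set and condition cannot be told apart, so no test was run between them. Several Sprr2 genes are near-identical copies that may share reads, so their single values are uncertain. S100a1 overlaps S100a13, and S100a2 lies within S100a3. Tgfbr2, a gene that the label Tbr might mean, had 183 to 445 CPM in the TbrKO tumours and 195 and 219 CPM in the HRas tumours, which checks no label.

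The promoters of 6 members are shown because these genes carry the main results and because their letters set the families apart. Each runs over the 200 bases before the start site, from RefSeq on GRCm38.p6, read 5′ to 3′ on the strand of the gene, and capitals mark the AP-1 motif TGANTCA and the TATA box TATAAA.
Sprr1b, chr3:92438780-92438979, reverse strand: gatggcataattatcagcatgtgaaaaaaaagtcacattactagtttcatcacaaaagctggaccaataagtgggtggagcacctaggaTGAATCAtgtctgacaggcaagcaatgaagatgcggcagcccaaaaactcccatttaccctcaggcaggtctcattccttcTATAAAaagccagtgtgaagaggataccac
Sprr2d, chr3:92338940-92339139, forward strand: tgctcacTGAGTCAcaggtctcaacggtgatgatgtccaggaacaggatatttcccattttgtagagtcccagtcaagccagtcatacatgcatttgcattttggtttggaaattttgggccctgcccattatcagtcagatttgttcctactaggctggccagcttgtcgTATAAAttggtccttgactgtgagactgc
Sprr2h, chr3:92385485-92385684, forward strand: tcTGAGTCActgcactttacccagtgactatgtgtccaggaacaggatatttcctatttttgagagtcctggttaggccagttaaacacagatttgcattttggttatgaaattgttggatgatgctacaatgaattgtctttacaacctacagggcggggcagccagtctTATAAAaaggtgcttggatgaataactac
Sprr1a, chr3:92485882-92486081, reverse strand: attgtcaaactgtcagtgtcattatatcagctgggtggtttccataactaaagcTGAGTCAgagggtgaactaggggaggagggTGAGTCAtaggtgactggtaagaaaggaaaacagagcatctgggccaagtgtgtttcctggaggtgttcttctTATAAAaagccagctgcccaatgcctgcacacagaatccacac
S100a8, chr3:90668871-90669070, forward strand: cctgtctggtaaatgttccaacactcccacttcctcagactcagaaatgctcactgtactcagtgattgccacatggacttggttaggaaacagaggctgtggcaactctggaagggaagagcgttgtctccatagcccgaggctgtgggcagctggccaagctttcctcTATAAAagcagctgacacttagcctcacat
S100a9, chr3:90695722-90695921, reverse strand: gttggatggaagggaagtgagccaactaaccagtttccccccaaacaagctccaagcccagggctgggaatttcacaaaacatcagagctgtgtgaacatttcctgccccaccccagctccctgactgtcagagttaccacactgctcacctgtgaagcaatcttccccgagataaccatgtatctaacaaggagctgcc

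Promoters were searched on both strands from 250 bases before to 50 after the start, and 42 of the 48 members had an entry. The AP-1 motif TGANTCA stood in 9 of 11 Sprr promoters (81.8%), in 0 of 20 Lce promoters and in 2 of 15 S100a promoters (13.3%, from 11 genes, some with several starts), against 7.81% of the 32851 promoters of the table. In the 7 Sprr2 promoters with an entry it lay at almost the same place, between positions -198 and -193 from the start, with a second match at -182 in Sprr2k, and the TATA box lay at -29 in each. Those 7 promoters were identical at 61.9% to 89.1% of positions over their 21 pairs, so they are not separate observations. Sprr1b, outside that group, had AP-1 at -111 and Sprr1a had it at -146 and -116, as the capitals in the lines above show. TATAAA, the letters of the TATA box, stood somewhere in the window of 10 of 11 Sprr promoters (90.9%), against 13.6% of all. The same letters stood in 4 of 20 Lce promoters (20%) and 4 of 15 S100a promoters (26.7%). In Lce6a, Lce3e and S100a9 the match lay at -218, -243 and 1, not near the -29 of the Sprr2 promoters. For 2 other motifs the Sprr share was near that of all promoters: GGAAGT in 27.3% against 23.8%, and CACCC in 45.5% against 57.5%. A match is a run of letters and not a binding site.

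In the CL wounds 9 of 9 Sprr2 genes, Sprr1a, Sprr1b and the calprotectin pair were higher in both lineages, while most Lce genes were not called. Of 39 members tested between the wounded HFSC lineage and HFSC in the CL libraries, 19 were higher and 3 lower (edgeR adjusted p under 0.05, n = 2 libraries per group). Of all 14831 genes tested in that comparison 46.1% were called, 21.4% higher and 24.7% lower. Between wounded EpdSC and EpdSC, 23 of the 39 tested members were higher and 0 lower, where 58.4% of all genes were called and 30.2% higher; at an unadjusted p under 0.05 the count of members was 25, and DESeq2 called 23. Of all genes, 28.2% were lower in that comparison. The median log2 fold change of the 39 members was 1.35 in the HFSC lineage, against -0.10 for all genes, and 1.92 in EpdSC, against -0.04 for all genes. With genes that were at 0 in the unwounded libraries set to the bound that 3 counts per library allow, those member medians were 1.35 and 1.61. Genes were tested only if they passed a filter on low counts. Sprr2b, Sprr2d, Sprr2e, Sprr2f, Sprr2i, Sprr2j-ps, Sprr2k and Lce3d were at 0 in every unwounded CL library. They passed the filter through their wounded counts alone, while members low in all CL groups, such as Lce3a and Sprr3, were not tested. The medians hold for the tested members and may be raised by this filter.

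**Figure D1:**
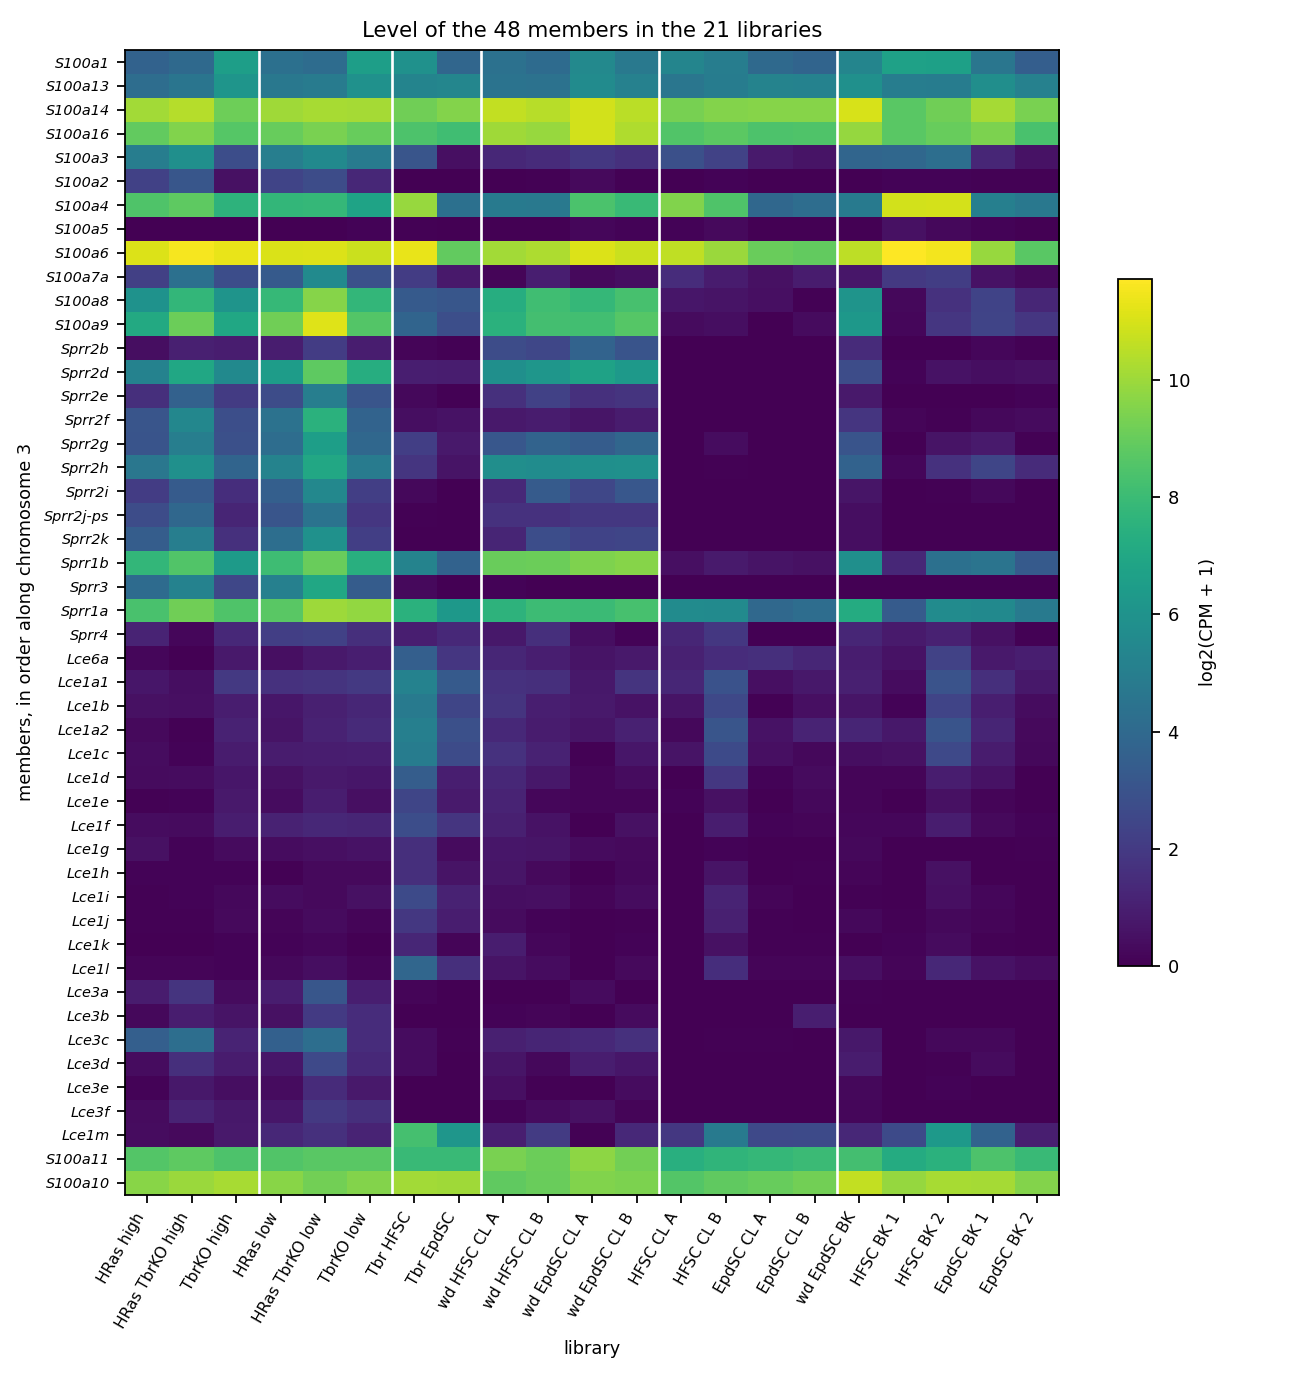
Level of the 48 members in each of the 21 libraries, in CPM on a log scale, with members in rows in order along chromosome 3 and libraries in columns by group. Sprr2 genes were near or at 0 in CL HFSC and EpdSC, and Lce1 genes stood highest in the Tbr HFSC library.

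Sprr1b, an envelope precursor, had 525 and 542 CPM in the wounded HFSC lineage, against 0.398 and 0.812 CPM in HFSC. In wounded EpdSC it had 697 and 768 CPM, against 0.547 and 0.454 CPM in EpdSC. All 4 wounded libraries stood far above all 4 unwounded ones, with log2 fold changes of 9.85 ± 0.38 in the HFSC lineage (SE; adjusted p = 1.36e-05, edgeR) and 10.44 ± 0.40 in EpdSC (adjusted p = 1.19e-05, edgeR). Sprr2d, of the Sprr2 group of envelope precursors, had 56.4 and 70.6 CPM in wounded cells of the HFSC lineage, and in wounded EpdSC 108 and 78.6 CPM, and was at 0 in all 4 unwounded CL libraries. Against a floor of 3 counts per library it was at least 594-fold higher in the wounded HFSC lineage (adjusted p = 4.61e-05, edgeR) and at least 581-fold higher in wounded EpdSC (adjusted p = 3.58e-05, edgeR).

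The other Sprr2 genes, of which Sprr2g and Sprr2j-ps are transcribed pseudogenes, showed the same split, and 9 of the 9 were higher in both wounded groups. Sprr2h had 54.2 CPM and 50.9 CPM in the wounded HFSC lineage, against 0.0306 and 0.0406 CPM in HFSC, which is 1 count in each library. The ratio of its summed counts was 1507 with an exact 95% interval of 417 to 12451 that covers counting error only, and the edgeR adjusted p was 1.99e-05. In wounded EpdSC Sprr2h had 57.1 and 57.8 CPM, against 0 in both EpdSC libraries, and was at least 358-fold higher (adjusted p = 1.40e-05, edgeR). The lower bounds for the other Sprr2 genes at 0 in unwounded cells ran from 7.40-fold for Sprr2f to 50.8-fold for Sprr2i in the HFSC lineage, with 48.6-fold for Sprr2b, 33.4-fold for Sprr2k and 28.0-fold for Sprr2e. In EpdSC the bounds included 72.6-fold for Sprr2g and 61.0-fold for Sprr2b. Because the copies may share reads, their counts were also summed: the Sprr2 sum was 132 and 160 CPM in the wounded HFSC lineage, against 0.0306 and 0.365 CPM in HFSC, with a log2 fold change of 9.67 ± 0.67 (adjusted p = 0.000102, edgeR). It was 201 and 176 CPM in wounded EpdSC, against 0 in both EpdSC libraries (adjusted p = 6.38e-05, edgeR).

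Sprr1a, another envelope precursor, was already present in resting skin. It had 193 and 262 CPM in the wounded HFSC lineage, against 49.5 and 47.3 CPM in HFSC, a log2 fold change of 2.27 ± 0.25 (adjusted p = 0.000357, edgeR). In wounded EpdSC it had 258 and 318 CPM, against 14.5 and 17.0 CPM in EpdSC, a log2 fold change of 4.15 ± 0.27 (adjusted p = 3.58e-05, edgeR). The groups did not overlap in either lineage. Sprr3, by contrast, was at 0 in 3 of the 4 wounded CL libraries and had 0.0707 CPM in the other, and was not tested there. Sprr4 had 0.707 and 2.02 CPM in the wounded HFSC lineage, against 1.41 and 2.72 CPM in HFSC, and these ranges overlapped.

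S100a8 and S100a9, which pair up as calprotectin, rose in both lineages. S100a8 had 158 and 279 CPM in the wounded HFSC lineage, against 0.643 and 0.528 CPM in HFSC, with a log2 fold change of 8.57 ± 0.57 (adjusted p = 4.92e-05, edgeR). S100a9 had 177 and 300 CPM in the wounded HFSC lineage, against 0.276 and 0.365 CPM in HFSC, with a log2 fold change of 9.58 ± 0.68 (adjusted p = 6.12e-05, edgeR). In wounded EpdSC S100a8 had 225 and 317 CPM, against 0.379 and 0.0648 CPM in EpdSC, with a log2 fold change of 10.03 ± 0.64 (adjusted p = 3.44e-05, edgeR). For both genes every wounded library was above every unwounded one, and S100a9 in wounded EpdSC was no different, with 292 and 401 CPM against 0 and 0.259 CPM in EpdSC, a log2 fold change of 11.59 ± 0.78 (adjusted p = 3.73e-05, edgeR).

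Neutrophils are rich in this pair, so their other markers were read in the same libraries. The 11 neutrophil markers in the table, of 12 on the list, summed to 13.2 to 13.8 CPM in the wounded HFSC lineage, against 2.45 to 4.59 CPM in HFSC, and Mpo, Elane, Camp, Ngp, Ltf and Retnlg were at 0 in both wounded libraries. Of the 6 tested, 2 were higher and 0 lower: Cxcr2 had 6.61 and 7.66 CPM in the wounded HFSC lineage, against 0 and 0.203 CPM in HFSC, and Itgam 4.95 and 3.97 CPM, against 1.62 and 1.10 CPM. In wounded EpdSC, where 5 of 6 were higher, the same markers summed to 76.1 to 192 CPM, against 1.43 to 2.15 CPM in EpdSC, with Elane and Camp at 0. Ptprc and Itgam, which other leukocytes also carry, had the most counts of the list in wounded EpdSC. Ptprc had 499 counts in A and 2211 in B, and Itgam 576 and 1057, so this sum is not one of neutrophils alone. All these groups had been sorted as lineage negative, and the part of neutrophils in the S100a8 and S100a9 values was not tested. With the wounded EpdSC libraries left out of the fit, an alternative chosen after seeing the data, 22 members were called in the wounded HFSC lineage against HFSC. That fit compared the same wounded HFSC lineage and HFSC libraries, so it cannot decide on neutrophils in them.

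**Figure D2:**
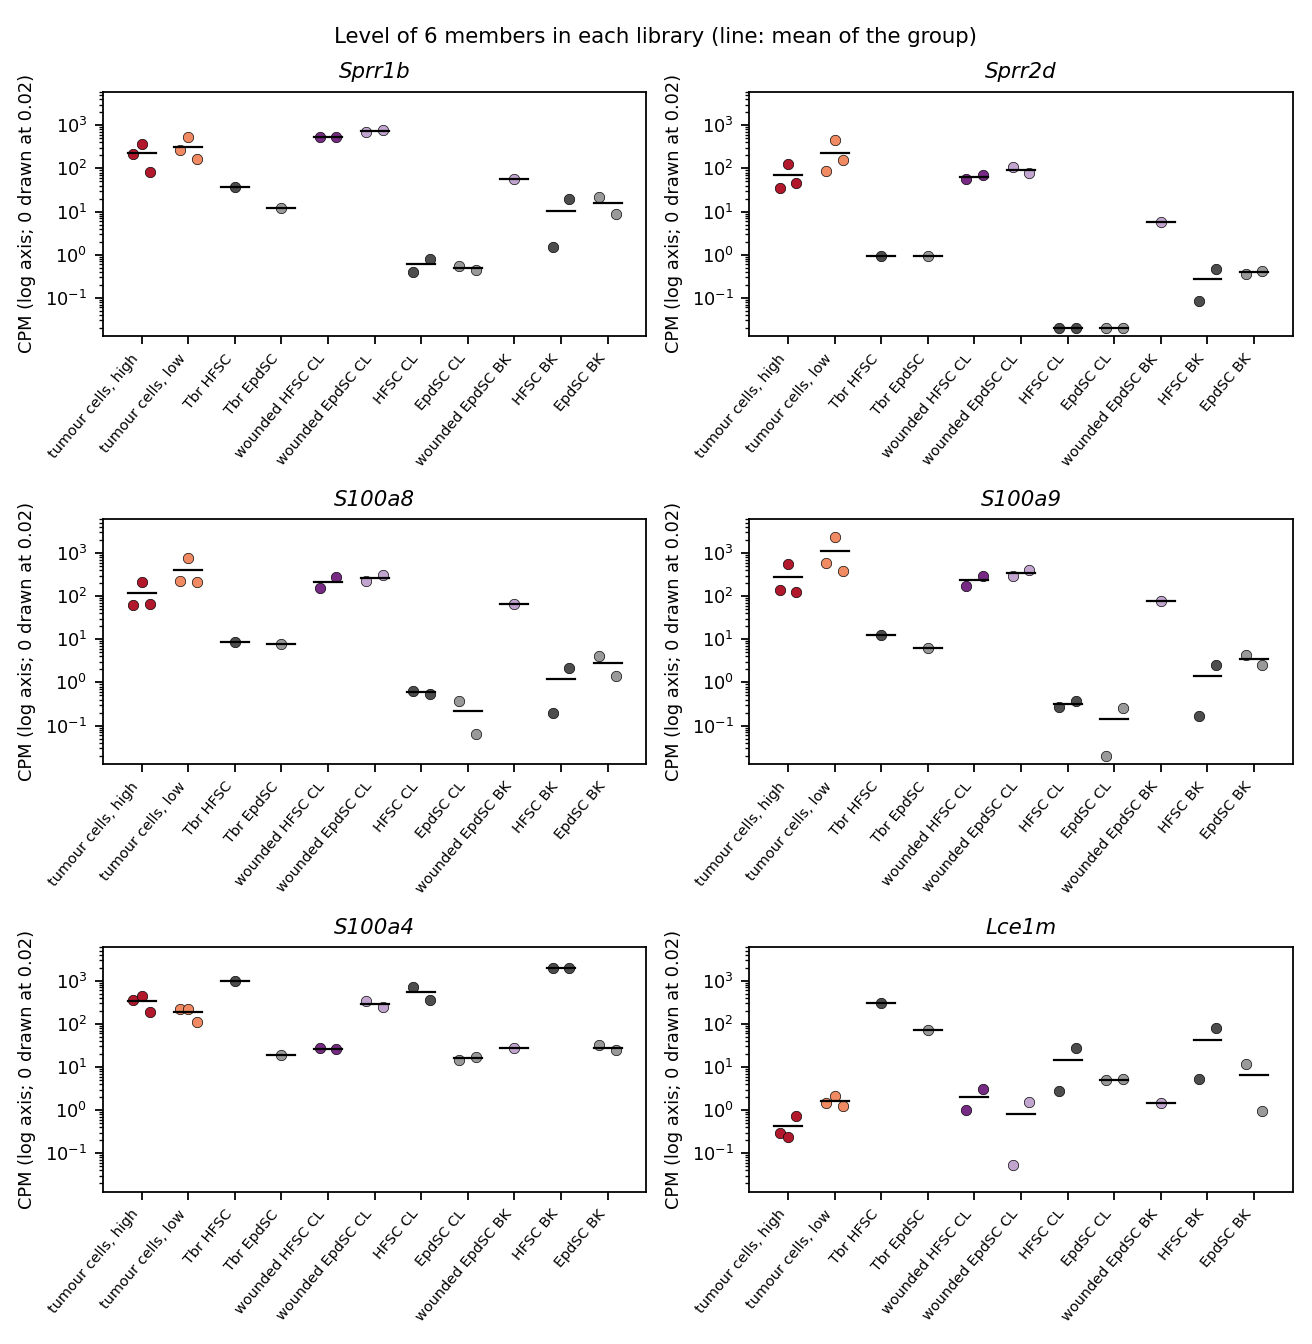
Level of 6 members, Sprr1b, Sprr2d, S100a8, S100a9, S100a4 and Lce1m, with 1 point per library in CPM on a log axis, a line at the mean of each group and values of 0 drawn at 0.02. The first 4 genes stood high in tumours and CL wounds and low in resting skin, while S100a4 was high in HFSC and also in tumours and CL wounded EpdSC, and Lce1m was highest in Tbr HFSC, followed by BK HFSC 2 and Tbr EpdSC.

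The rest of the S100a family moved less and not always the same way. S100a16, S100a11 and S100a14, calcium-binding proteins of epithelia, were higher in both wounded groups, with log2 fold changes of 1.35, 1.76 and 1.16 in the HFSC lineage and 2.14, 1.57 and 1.10 in EpdSC (edgeR adjusted p from 0.00025 to 0.0026). S100a10, the partner of annexin A2, had 469 and 527 CPM in the wounded HFSC lineage, against 388 and 462 CPM in HFSC, and was not called in either lineage. S100a4, known from fibroblasts and motile cells, had 27.6 and 25.5 CPM in the wounded HFSC lineage, against 717 and 356 CPM in HFSC. It thus fell in the follicle lineage, with a log2 fold change of -4.30 ± 0.36 (adjusted p = 0.000116, edgeR). In EpdSC it went the other way, with 334 and 247 CPM in wounded EpdSC, against 14.3 and 17.4 CPM in EpdSC, a log2 fold change of 4.14 ± 0.36 (adjusted p = 0.000105, edgeR). A second count table of the CL libraries, by Ensembl ID, held only 13.9% of these S100a4 counts, so its level depends on the annotation, though it was called there too.

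The difference of the wound responses, the HFSC lineage minus EpdSC, was tested in the same fit. Of 39 tested members 5 passed, all with the lower response in the HFSC lineage. Of all genes 15.8% passed, 5.31% with the higher and 10.5% with the lower response. Sprr2b, Sprr2d, Sprr2e, Sprr2f, Sprr2i, Sprr2j-ps, Sprr2k and Lce3d were at 0 in all 4 unwounded CL libraries. Their difference had standard errors from 302 to 2269, so the test could not decide on them. For S100a4 this difference was -8.44 ± 0.51 on the log2 scale (adjusted p = 0.000204, edgeR). The same 4-group comparison gave -3.41 ± 0.64 for S100a3, a calcium-binding protein of the hair cuticle (adjusted p = 0.0122, edgeR). S100a1 gave -2.20 ± 0.40 (adjusted p = 0.0106, edgeR), S100a6 -2.01 ± 0.36 (adjusted p = 0.0101, edgeR) and Sprr1a -1.88 ± 0.34 (adjusted p = 0.0111, edgeR). Without EpdSC A, without EpdSC B or without wounded HFSC lineage A, 2 of these 5 were kept. For Sprr1b, S100a8 and S100a9 the difference did not pass, with edgeR adjusted p of 0.367, 0.204 and 0.21. In wounded EpdSC the 7 fibroblast markers summed to 687 to 699 CPM, against 2.53 to 2.86 CPM in EpdSC, and the 7 macrophage markers in the table to 694 to 778 CPM, against 5.09 to 6.81 CPM in EpdSC. The 5 Langerhans and T cell markers in the table summed to 3632 to 5099 CPM in wounded EpdSC, against 26.8 to 42.9 CPM in EpdSC, with 5 of 5 higher, and to 29.4 to 37.5 CPM in the wounded HFSC lineage, against 54.7 to 143 CPM in HFSC, with 5 of 5 lower. Cd74 and H2-Aa, which other antigen-presenting cells also carry, made up most of the wounded EpdSC sum. In wounded EpdSC A they had 63845 and 31681 counts, against 427 for Cd207, 330 for Cd3e and 697 for Cd3g. In wounded EpdSC these lists rose, as S100a4 did. In the wounded HFSC lineage, where S100a4 fell, the macrophage sum was 23.4 to 26.5 CPM, against 5.33 to 10.3 CPM in HFSC. Of its 7 tested markers 2 were higher and 0 lower. The fibroblast sum there was 6.75 to 10.3 CPM, against 38.2 to 42.6 CPM in HFSC, with 1 of 7 higher and 2 lower. The part of these markers in the result was not tested. In the BK libraries, where the fibroblast sum was 2.17 CPM and the Langerhans and T cell sum 33.9 CPM in the wounded EpdSC library, S100a4 had 27.6 CPM there, against 32.0 and 24.6 CPM in EpdSC.

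Set directly against each other, the wounded HFSC lineage and wounded EpdSC differed in 2 of 39 tested members, both lower in the HFSC lineage, where 19.2% of all genes were called, 6.8% higher and 12.4% lower. The log2 difference was -3.42 ± 0.35 for S100a4 (adjusted p = 0.00121, edgeR) and -0.98 ± 0.22 for S100a13, which takes part in the release of leaderless growth factors (adjusted p = 0.0291, edgeR). Leaving out EpdSC A, EpdSC B, either wounded HFSC library or wounded EpdSC A left 1 call, S100a4, and leaving out wounded EpdSC B gave 5. No Sprr member of 12 tested was called by edgeR or by DESeq2, and 1 had an unadjusted p under 0.05 with edgeR and 2 with DESeq2. The differences for Sprr1b and Sprr2d were -0.44 ± 0.25 (adjusted p = 0.194, edgeR) and -0.52 ± 0.24 (adjusted p = 0.143, edgeR). Those for S100a8 and S100a9 were -0.29 ± 0.39 (adjusted p = 0.582, edgeR) and -0.52 ± 0.44 (adjusted p = 0.369, edgeR).

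The Lce genes were scarce after wounding. Of 15 Lce members tested, 3 were higher in the wounded HFSC lineage and the same 3 in wounded EpdSC, namely Lce3c, Lce3d and Lce1g, and their highest value in a wounded library was 2.05 CPM, of Lce3c. That is 20% of the tested Lce members, below the 21.4% and 30.2% of all genes that were higher in these comparisons. Lce3c had 1.03 and 1.30 CPM in the wounded HFSC lineage, against 0 and 0.0406 CPM in HFSC, and 1.58 and 2.05 CPM in wounded EpdSC, against 0.0421 and 0 CPM in EpdSC. The Lce1 genes summed to 16.4 and 11.2 CPM in the wounded HFSC lineage, against 5.60 and 60.6 CPM in HFSC, so the 2 HFSC libraries lay on both sides of the wounded ones. Among them Lce1m had 0.990 and 3.09 CPM in the wounded HFSC lineage, against 2.73 and 27.0 CPM in HFSC, and did not pass the test. Loricrin, another late envelope protein, had 18.6 CPM in HFSC A and 113 CPM in HFSC B, and so differed between these libraries in the same direction as the Lce1 genes.

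**Figure D3:**
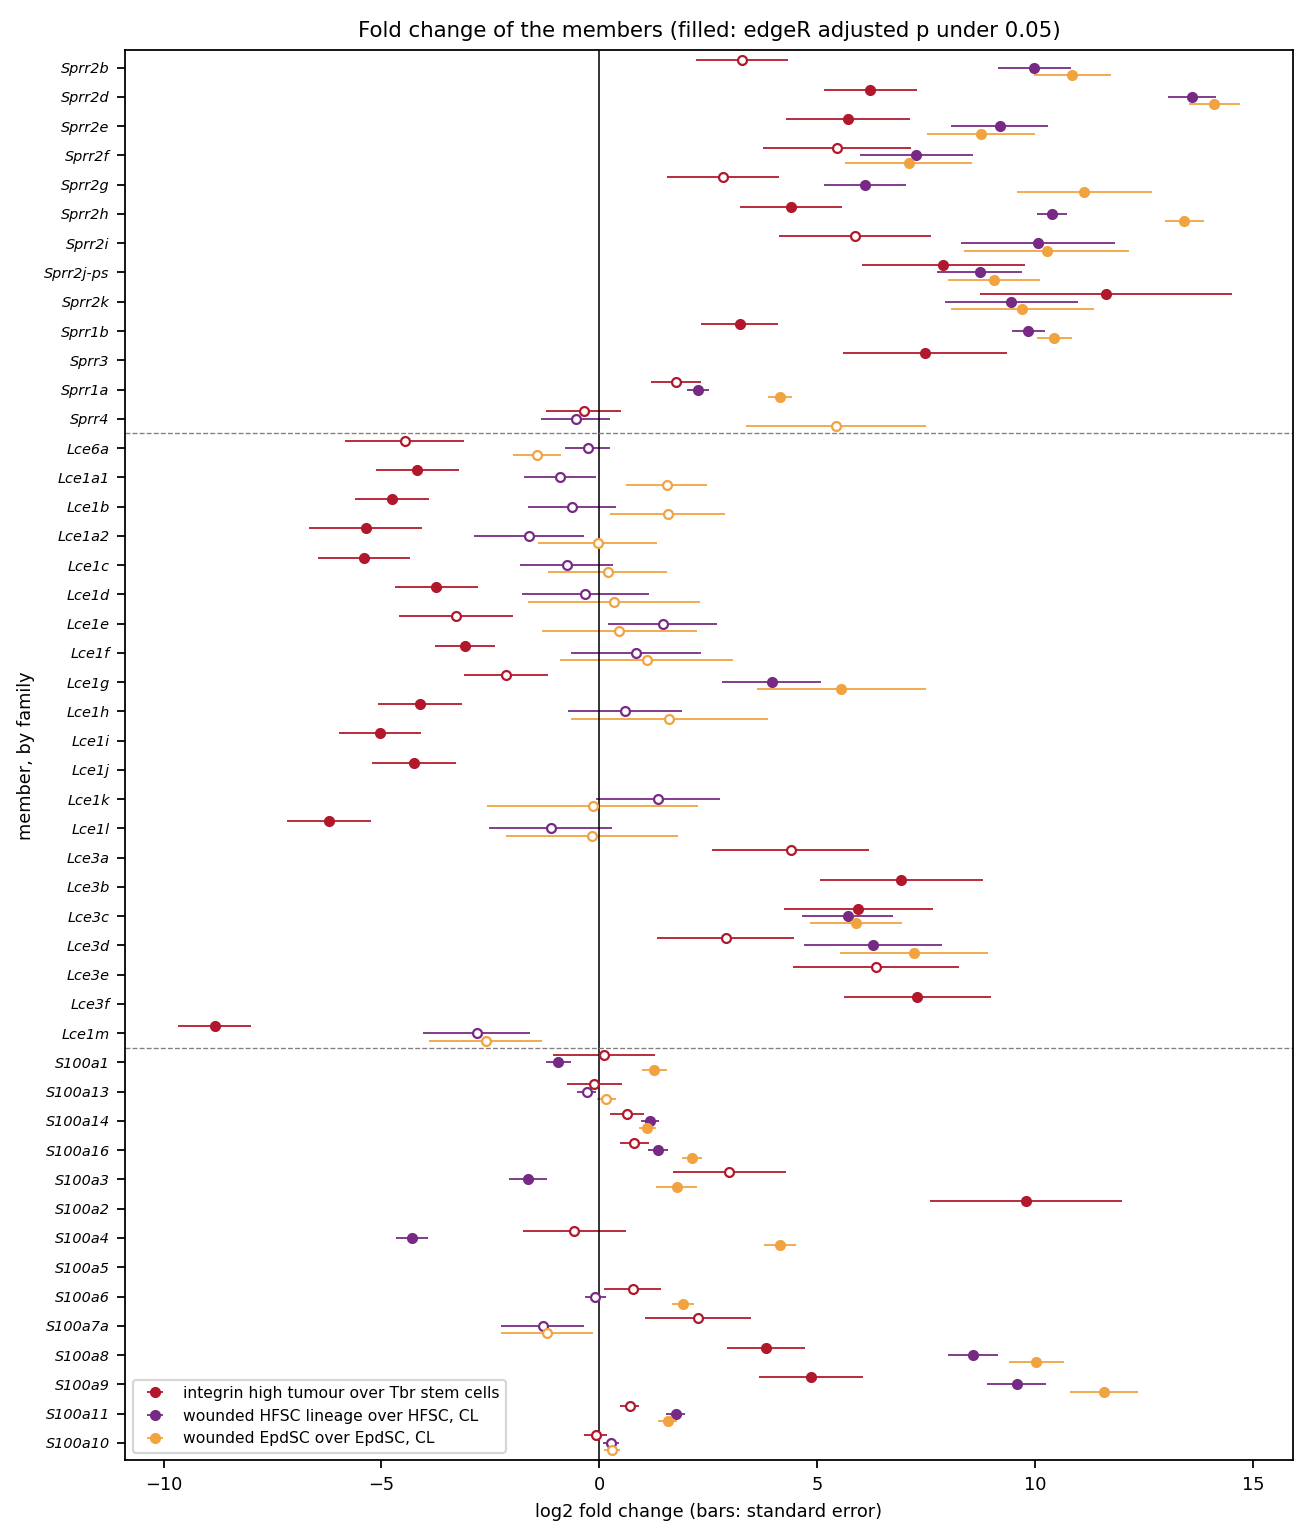
Fitted log2 fold change of each tested member, with its standard error, in 3 comparisons: integrin high tumour cells over Tbr stem cells, wounded HFSC lineage over HFSC, and wounded EpdSC over EpdSC. Filled points passed an edgeR adjusted p of 0.05, and fitted values of genes at 0 in the unwounded or stem cell libraries depend on the prior count and are not bounds. Sprr points lay right of 0 apart from 2 of the 3 Sprr4 points, Lce1 points of the tumour comparison left of it, and S100a4 on opposite sides in the 2 wounded lineages.

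In resting CL skin 6 of 39 tested members were higher in HFSC than in EpdSC and 0 lower, where 10.8% of all genes were called, 7.19% higher and 3.63% lower. Sprr2b, Sprr2d, Sprr2e, Sprr2f, Sprr2i, Sprr2j-ps, Sprr2k and Lce3d were at 0 in both groups, so they could not be called. S100a4 had 717 and 356 CPM in HFSC, against 14.3 and 17.4 CPM in EpdSC, a log2 fold change of 5.02 ± 0.38 (adjusted p = 0.000356, edgeR). Sprr4 had 1.41 and 2.72 CPM in HFSC, against 0 in both EpdSC libraries, at least 12.9-fold higher (adjusted p = 0.0185, edgeR). S100a3, Sprr1a, S100a1 and S100a6 had log2 fold changes of 2.86, 1.56, 1.26 and 1.26. Without EpdSC A or without EpdSC B only S100a4 was kept, and DESeq2 called 8. The BK libraries gave 5 of 37 tested members higher in HFSC and 0 lower, where 14.4% of all genes were called, 7.91% higher and 6.47% lower. There S100a4 had 1949 and 2022 CPM in HFSC, against 32.0 and 24.6 CPM in EpdSC, a log2 fold change of 6.13 ± 0.39 (adjusted p = 0.00236, edgeR). S100a3 (4.06), S100a7a (3.02), S100a1 (2.63) and S100a6 (2.20) followed on the log2 scale, so that S100a4, S100a3, S100a1 and S100a6 were called in both sets. Without BK HFSC 2 there were 9 calls (4 higher, 5 lower), and without BK EpdSC 2 there were 8 (5 higher, 3 lower). The fibroblast markers summed to 38.2 to 42.6 CPM in CL HFSC, against 2.53 to 2.86 CPM in CL EpdSC, and to 89.5 to 94.4 CPM in BK HFSC, against 1.17 to 3.41 CPM in BK EpdSC. Schwann and melanocyte markers summed to 12.0 to 13.9 CPM in CL HFSC, against 7.32 to 10.5 CPM in CL EpdSC (3 of 6 tested higher), and to 26.5 to 92.2 CPM in BK HFSC, against 4.99 to 10.9 CPM in BK EpdSC (4 of 8 higher). The part of either list in the result was not tested.

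The single wounded EpdSC library of the BK set had lower levels of Sprr1b, Sprr2d and S100a8 than wounded EpdSC of the CL set, where sets cannot be told apart from other differences between these libraries. Sprr1b had 56.8 CPM in it, against 22.1 and 8.96 CPM in EpdSC. Sprr2d had 5.65 CPM in wounded EpdSC, against 0.359 and 0.420 CPM in EpdSC. S100a8 had 65.8 CPM in wounded EpdSC, against 4.19 and 1.40 CPM in EpdSC, and for all 3 genes the wounded library was the highest. With 1 wounded library assumed to vary like the other groups, 1 of 37 tested members was called, S100a3 with a log2 fold change of 3.81 ± 0.62 (adjusted p = 0.0445, edgeR), where 7.97% of all genes were called, 1.77% higher and 6.21% lower. The values for Sprr2d and S100a8 were 3.88 ± 0.91 (adjusted p = 0.0539, edgeR) and 4.57 ± 1.14 (adjusted p = 0.0582, edgeR), the unadjusted p was under 0.05 for 10 members, and 7 were called by DESeq2. Leaving out HFSC 1 gave 5 calls, HFSC 2 gave 5, EpdSC 1 gave 14 and EpdSC 2 gave 6. No BK library lacked Sprr1b, which ranged from 1.49 to 22.1 CPM in the 4 unwounded ones, against 0.398 to 0.812 CPM in the unwounded CL libraries, and the part of the set in this gap was not tested.

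In tumour cells 7 of 13 Sprr members and the calprotectin pair were higher than in the Tbr stem cells, and 11 of 13 tested Lce1 genes were lower. Between integrin high tumour cells (3 libraries, 1 per genotype) and the Tbr stem cells (1 HFSC and 1 EpdSC library), 13 of 46 tested members were higher and 11 lower, and 21.5% of all 15471 genes were called, 11.9% higher and 9.56% lower. The median log2 fold change was 5.45 over the 13 Sprr members, against 0.12 over all genes, and Sprr4 was not called, with 1.28, 0.140 and 1.52 CPM in HRas, HRas TbrKO and TbrKO integrin high cells, against 1.01 and 1.52 CPM in Tbr HFSC and Tbr EpdSC. Sprr2d had 35.2, 127 and 47.0 CPM in HRas, HRas TbrKO and TbrKO integrin high cells, against 0.952 and 0.945 CPM in Tbr HFSC and Tbr EpdSC, a log2 fold change of 6.22 ± 1.06 (adjusted p = 0.012, edgeR). Sprr1b had 214, 378 and 83.1 CPM in the same tumour libraries, against 36.6 and 12.0 CPM in the Tbr stem cells, a log2 fold change of 3.22 ± 0.89 (adjusted p = 0.0413, edgeR). For both genes the groups did not overlap, and the HRas TbrKO library was the highest.

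S100a9 had 139, 548 and 127 CPM in HRas, HRas TbrKO and TbrKO integrin high cells, against 12.8 and 6.16 CPM in the Tbr stem cells, a log2 fold change of 4.86 ± 1.19 (adjusted p = 0.0306, edgeR). S100a8 had 62.2, 218 and 65.8 CPM in those cells, against 8.86 and 7.85 CPM in the Tbr stem cells, a log2 fold change of 3.82 ± 0.90 (adjusted p = 0.0275, edgeR). Every tumour library was above both stem cell libraries. The neutrophil markers summed to 133 to 415 CPM in the integrin high tumour cells, against 9.90 to 13.1 CPM in the Tbr stem cells. Ltf made up most of that sum, with 254, 330 and 120 CPM in HRas, HRas TbrKO and TbrKO integrin high cells, and was the 1 of 9 tested neutrophil markers called higher. In the same cells the macrophage markers summed to 113 to 365 CPM, against 4.89 to 15.1 CPM, and the fibroblast markers to 875 to 2111 CPM, against 8.34 to 34.8 CPM. The tumour cells were sorted by GFP with no lineage gate named, and the part of these markers in the S100a8 and S100a9 values was not tested.

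Sprr3 and S100a2 were near or at 0 in the libraries outside the tumours, while Sprr2k was found both in tumours and in wounds. Sprr3, an envelope precursor best known from the oesophagus and other internal squamous linings, had 16.4, 35.5 and 4.62 CPM in HRas, HRas TbrKO and TbrKO integrin high cells, against 0.238 and 0 CPM in the Tbr stem cells, a log2 fold change of 7.47 ± 1.88 (adjusted p = 0.0327, edgeR). Outside the DS set it was at 0 in 12 of the 13 libraries. Sprr2k had 10.1, 31.2 and 2.09 CPM in the tumour cells, against 0 in both Tbr stem cell libraries, at least 95.9-fold higher (adjusted p = 0.0368, edgeR), and between 1.31 and 5.83 CPM in the 4 wounded CL libraries. S100a2 had 3.81, 7.90 and 0.433 CPM in the tumour cells, against 0 in both, at least 26.8-fold higher (adjusted p = 0.0291, edgeR), and was at most 0.210 CPM in the libraries outside the tumours. In all 3 genes the TbrKO library was the lowest of the integrin high tumours. Crnn, the cornulin gene of the same locus and also known from internal squamous linings, had a log2 fold change of 6.36 (adjusted p = 0.0378, edgeR).

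The Lce family divided in tumour cells. Of the Lce3 genes, known from injured skin, Lce3c had 10.8, 17.6 and 1.23 CPM in HRas, HRas TbrKO and TbrKO integrin high cells, against 0.297 and 0.0411 CPM in the Tbr stem cells, a log2 fold change of 5.94 ± 1.71 (adjusted p = 0.0458, edgeR). Lce3f and Lce3b, at 0 in both stem cell libraries, were at least 4.80-fold and 3.72-fold higher. Of the Lce1 genes 11 were lower and 0 higher. Lce1m had 0.295, 0.245 and 0.722 CPM in the tumour cells, against 310 and 70.6 CPM in Tbr HFSC and Tbr EpdSC, a log2 fold change of -8.83 ± 0.83 (adjusted p = 0.00291, edgeR). The other called Lce1 genes had log2 fold changes between -6.20 for Lce1l and -3.08 for Lce1f. The late envelope genes of the same locus moved with them: Flg2 (-7.61), Kprp (-5.43), Lor (-5.02), Hrnr (-4.87) and Crct1 (-3.55) were lower.

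The Tbr HFSC library was the one that stood out for these late genes. Its Lce1 sum was 482 CPM and that of Tbr EpdSC 105 CPM, where the 4 BK and 4 CL unwounded libraries lay between 2.89 and 107 CPM, and the highest of the 6 tumour libraries had 12.3 CPM. The suprabasal keratinocyte markers, such as Krt1 and Krt10, summed to 835 to 1948 CPM in the integrin high tumour cells, against 9165 to 17406 CPM in the Tbr stem cells. In the wounded HFSC lineage they summed to 36092 to 42859 CPM, against 3219 to 4563 CPM in HFSC. The part of such cells in the members' values was not tested.

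The count of calls in the tumour comparison rested on single libraries; each genotype and each lineage was sequenced once per gate. Of the 24 calls, 3 were kept without HRas integrin high, 4 without HRas TbrKO integrin high, 2 without Tbr HFSC (which gave 4 calls in all) and 11, all lower, without Tbr EpdSC. Without HRas integrin low 14 were kept, and with only the integrin high and stem cell libraries in the fit 7. DESeq2 called 35. Sprr1b and Sprr3 were above both stem cell libraries in 3 of 3 integrin high tumours, but neither was called without HRas integrin high, HRas integrin low, HRas TbrKO integrin high, Tbr HFSC or Tbr EpdSC. Sprr2d lost its call without Tbr HFSC or Tbr EpdSC, and S100a8 without those or without HRas or HRas TbrKO integrin high.

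**Figure D4:**
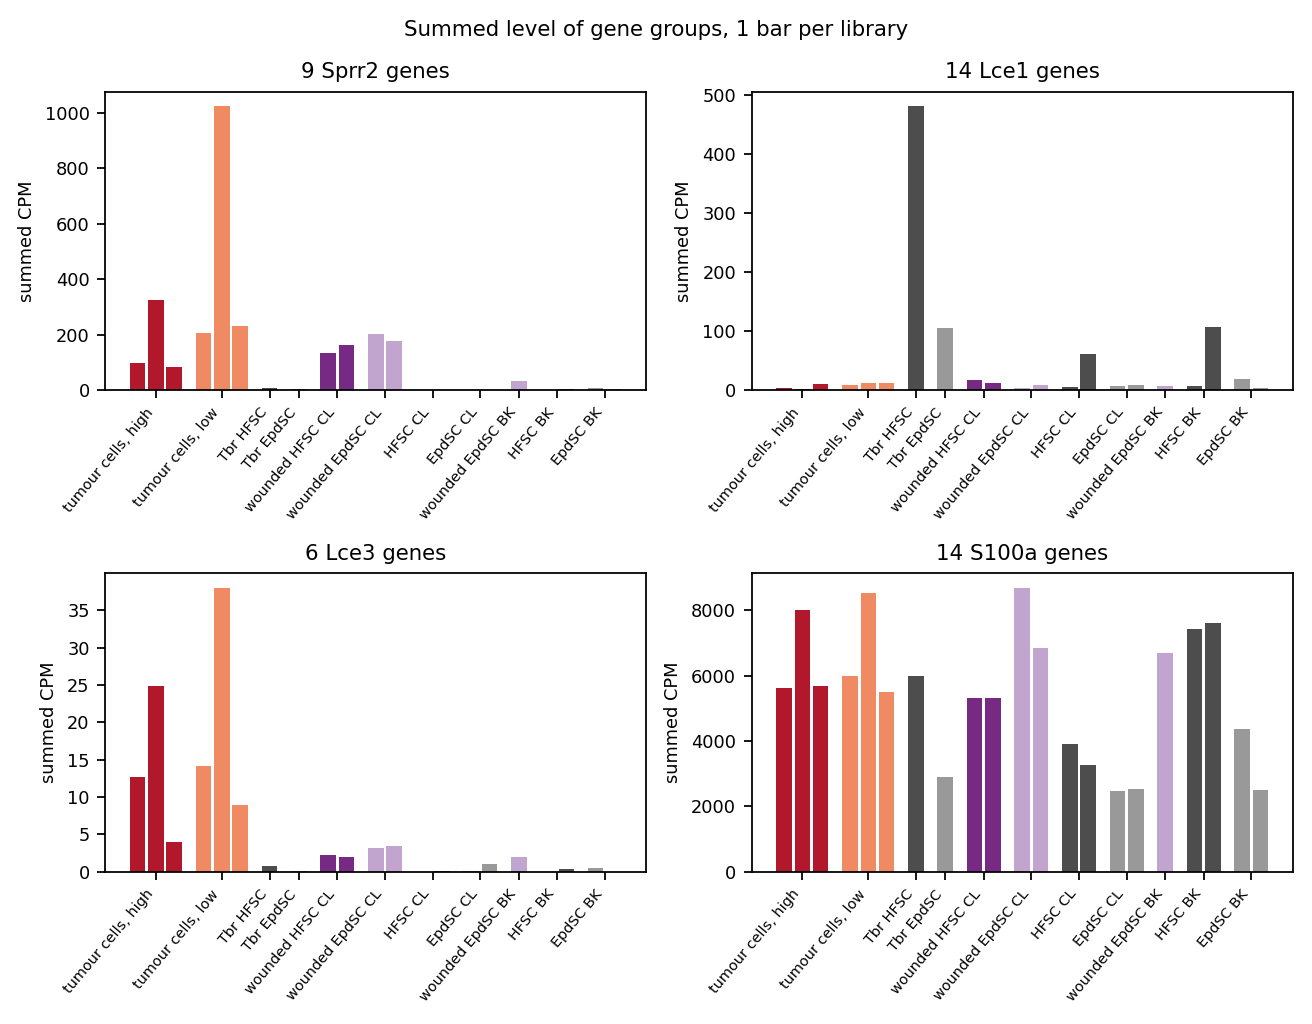
Summed CPM of the Sprr2, Lce1, Lce3 and S100a genes, with 1 bar per library and bars grouped by condition; within each tumour gate the bars are HRas, HRas TbrKO and TbrKO. The Sprr2 sum was highest in HRas TbrKO integrin low cells at 1025 CPM, the Lce1 sum in Tbr HFSC at 482 CPM and the Lce3 sum in HRas TbrKO integrin low cells at 38.1 CPM.

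Within each tumour genotype the integrin high cells had less S100a8, S100a9 and Sprr2d than the integrin low cells, while other members called in wounds, such as Sprr1b, S100a11 and S100a16, were not called. With genotype as a block, 8 of 42 tested members were lower in integrin high cells and 1 higher, where 3.07% of all 14519 genes were called, 2.95% lower and 0.124% higher. S100a8 had 62.2, 218 and 65.8 CPM in HRas, HRas TbrKO and TbrKO integrin high cells, against 228, 786 and 214 CPM in integrin low cells, a log2 fold change of -1.78 ± 0.12 (adjusted p = 0.0199, edgeR). S100a9 had 139, 548 and 127 CPM in integrin high cells, against 575, 2320 and 390 CPM in integrin low cells, a log2 fold change of -1.89 ± 0.16 (adjusted p = 0.0224, edgeR). Sprr2d had 35.2, 127 and 47.0 CPM in integrin high cells, against 87.2, 456 and 157 CPM in integrin low cells, a log2 fold change of -1.61 ± 0.16 (adjusted p = 0.0257, edgeR). Each gene was lower in 3 of 3 genotypes, though the gates overlapped between genotypes, and S100a8 was nearly as high in HRas TbrKO integrin high cells as in HRas integrin low cells. Sprr1b had 214, 378 and 83.1 CPM in integrin high cells, against 268, 528 and 167 CPM in integrin low cells. Its log2 fold change was -0.57, and it was not called.

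The other members lower in integrin high cells were Sprr2f, Sprr2e, Sprr2g, Sprr3 and Sprr2k, with log2 fold changes between -1.53 and -0.84, and the median over the 13 Sprr members was -1.30, against 0.05 over all genes. The Sprr2 copies summed to 95.7, 326 and 81.6 CPM in HRas, HRas TbrKO and TbrKO integrin high cells, against 205, 1025 and 230 CPM in integrin low cells (log2 fold change -1.39 ± 0.16, edgeR adjusted p = 0.0281). S100a4 was the member higher in integrin high cells, with 357, 453 and 190 CPM, against 217, 227 and 112 CPM in integrin low cells, a log2 fold change of 0.85 ± 0.13 (adjusted p = 0.0438, edgeR). Without the HRas or the HRas TbrKO pair no member was called by edgeR, with 16 and 13 at an unadjusted p under 0.05, and without the TbrKO pair 19 were called; without the block the count was 0, with 2 at an unadjusted p under 0.05, while DESeq2 with the block called 14. The neutrophil markers summed to 133 to 415 CPM in integrin high cells, against 594 to 1682 CPM in integrin low cells, and the fibroblast markers to 875 to 2111 CPM, against 5466 to 10959 CPM, and 7 of 7 fibroblast and 3 of 7 tested neutrophil markers were called lower. Their part in the result was not tested.

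The wound comparisons and the tumour comparison share no libraries, while both wound comparisons came from 1 fit. Of the members higher in the wounded HFSC lineage, 19 of 19 were also higher in wounded EpdSC, which is 100% of the first list and 82.6% of the second; over all genes the shared part was 68.4% and 48.3%. The 19 include all 9 Sprr2 genes, copies that may share reads and are not separate observations. Lce3d and most Sprr2 genes were at 0 in every unwounded CL library and passed the filter through their wounded counts alone. This may raise the shared part of the members, so the 100% cannot be weighed against the 68.4%. Of the 13 members higher in integrin high tumour cells, 9 (69.2%) were higher in the wounded HFSC lineage, where they made up 47.4% of its 19. They were Lce3c, S100a8, S100a9, Sprr1b, Sprr2d, Sprr2e, Sprr2h, Sprr2j-ps and Sprr2k, and the same 9 were higher in wounded EpdSC. Over all genes the shared part was 39.4% of the genes higher in tumour cells and 23.0% of those higher in the wounded HFSC lineage, and 66.8% and 27.5% for wounded EpdSC. The 4 tumour members outside these 9 were Sprr3, S100a2, Lce3b and Lce3f. None of these 4 passed the count filter of the CL libraries, so they were not tested in the wounds and could not be shared.

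Other genes known to work with the members were read from lists. Beside their counts, 21.4% of all genes were higher and 24.7% lower in the wounded HFSC lineage. The shares were 30.2% and 28.2% in wounded EpdSC, and 11.9% and 9.56% in integrin high tumour cells. Of the cross-linking and envelope partners outside the locus 12 were tested, and 6 rose and 2 fell in the wounded HFSC lineage, while 7 rose and 3 fell in wounded EpdSC. Tgm1 and Tgm3, the transglutaminases that join Sprr proteins into the envelope, had log2 fold changes of 3.75 and 4.29 for the wounded HFSC lineage, while wounded EpdSC gave 6.21 and 1.79. In integrin high tumour cells 1 of the 12 was higher, Tgm1 with a log2 fold change of 2.45, and 3 were lower. Of 13 other tested genes of the locus, 4 were higher and 3 lower in the wounded HFSC lineage, among them Rptn (3.97), an envelope protein, and Flg2 (-3.26). Of 20 transcription factors known to act on the locus, 6 rose and 7 fell in the wounded HFSC lineage, while 5 rose and 9 fell in wounded EpdSC. Fosl1, a subunit of AP-1, was lower in both, with log2 fold changes of -4.03 in the HFSC lineage and -5.15 in EpdSC (edgeR adjusted p = 0.00118 and 0.000323). Of the other AP-1 subunits only Fosl2 was on the list, and the part of AP-1 in the members' levels was not tested. The highest log2 fold change among the 20 factors was 2.28 in the HFSC lineage and 2.64 in EpdSC. Klf4, a factor of barrier formation, had log2 fold changes of -2.43 and -3.73 in the 2 wounded groups and -1.84 in integrin high tumour cells. Of 9 receptors and partners of S100 proteins, 3 rose and 2 fell in the wounded HFSC lineage, while 4 rose and 1 fell in wounded EpdSC.

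ATAC-seq peaks were counted in the locus in 1 pooled list per population, so there is no replicate error. Tumour cells had 83 peaks in it and wound cells 112, against 74 in HFSC and 56 in EpdSC. The lists themselves held 54201 and 56865 peaks in tumour and wound cells, against 55435 in HFSC and 25742 in EpdSC. Per 10000 peaks of its list the locus held 15.3 in tumour cells (95% Wilson interval 12.4 to 19.0) and 19.7 in wound cells (16.4 to 23.7), against 13.3 in HFSC (10.6 to 16.8) and 21.8 in EpdSC (16.8 to 28.2), intervals that cover counting error only. Wound cells thus had the most peaks in the locus, but as a share of the list EpdSC did, and tumour cells stood above EpdSC by number and below it by share. Fragments behind the lists numbered 29579794 and 11140895 in tumour and wound cells, against 26825550 in HFSC and 13963471 in EpdSC.

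**Figure D5:**
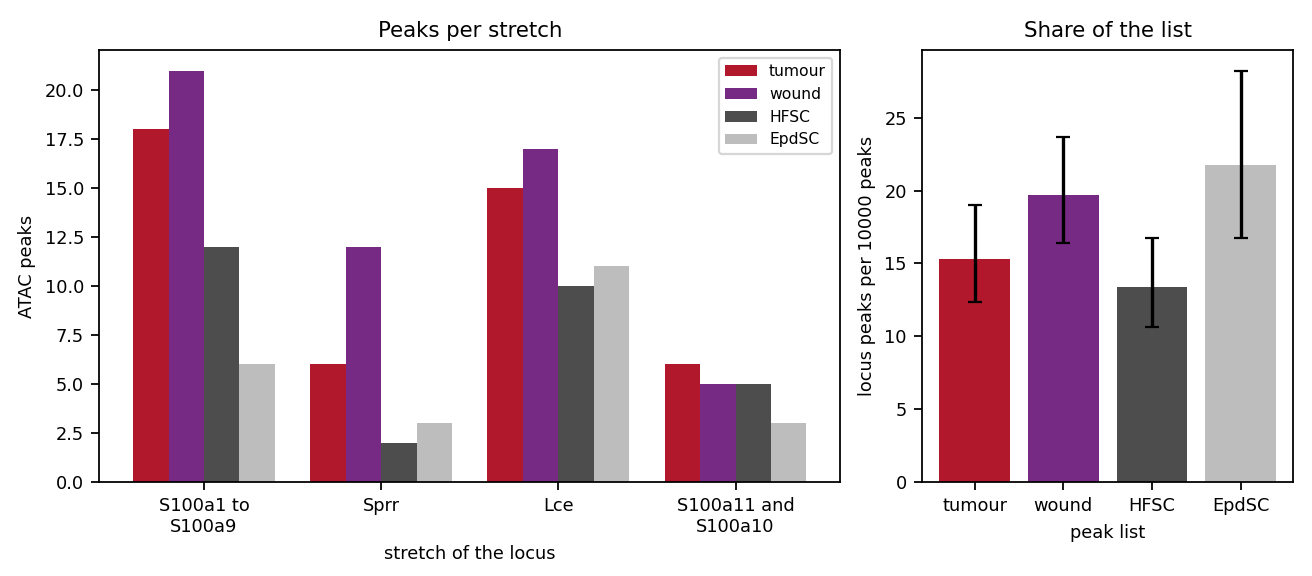
Peaks per stretch of the locus (left) and locus peaks per 10000 peaks of each list with 95% Wilson intervals (right), for the tumour, wound, HFSC and EpdSC lists. The Sprr stretch held 6 peaks in tumour and 12 in wound cells, against 2 in HFSC and 3 in EpdSC, while per 10000 peaks of the list the whole locus held most in EpdSC, at 21.8.

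By number the stretches of the locus differed. Between the outermost Sprr genes, chr3:92316705-92500493, there were 6 tumour and 12 wound peaks, against 2 in HFSC and 3 in EpdSC. From S100a1 to S100a9, chr3:90511034-90695721, there were 18 tumour and 21 wound peaks, against 12 in HFSC and 6 in EpdSC. Across the Lce genes, chr3:92604821-93019061, there were 15 and 17, against 10 and 11, and at S100a11 and S100a10 6 and 5, against 5 and 3. Per 10000 peaks of the list the order changed: the Sprr stretch held 1.11 in tumour and 2.11 in wound cells, against 0.361 in HFSC and 1.17 in EpdSC, with overlapping 95% Wilson intervals for wound cells (1.21 to 3.69) and EpdSC (0.396 to 3.43). The Lce stretch held 2.77 and 2.99 in tumour and wound cells, against 1.80 in HFSC and 4.27 in EpdSC, and that from S100a1 to S100a9 3.32 and 3.69, against 2.16 and 2.33. At S100a11 and S100a10 the shares were 1.11 and 0.879 in tumour and wound cells, against 0.902 in HFSC and 1.17 in EpdSC. Merged over the lists there were 146 peak regions in the locus, of which 29 were in all 4 lists, 30 in wound cells alone, 24 in tumour and wound cells alone, 14 in HFSC alone, 9 in tumour cells alone and 5 in EpdSC alone. Of the 83 tumour peaks, 69 (83.1%) overlapped a wound peak by at least 1 base, 45 (54.2%) an HFSC peak and 34 (41.0%) an EpdSC peak. Of the 112 wound peaks, 68 (60.7%) overlapped a tumour peak. The merged regions and overlaps were counted in the locus alone, with no share over the whole lists beside them. They therefore do not set the locus apart from the rest of the genome. The lists also differed in size, with 25742 peaks in EpdSC against 56865 in wound cells, which bears on the overlaps.

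At the promoters named above, from 250 bases before to 50 after the start, a peak lay over 8 of 42 members in tumour and 13 in wound cells, against 8 in HFSC and 7 in EpdSC. These are 19.0% and 31.0%, against 19.0% and 16.7%, where all genes of the table had a peak in 37.9% and 40.0%, against 42.0% and 30.0%. Peaks over Sprr2d, Sprr2h, Sprr1b and S100a9 were in the wound list and in no other, with fold enrichments by the authors of 6.32, 12.1, 5.18 and 9.26. S100a8 had a peak in tumour (6.26) and wound cells (7.13) and in neither stem cell list. Sprr1a, whose RNA was present in resting skin, had one in all 4 lists, with folds between 6.86 and 10.2. Only 1 Lce promoter in each list had a peak: Lce3c in tumour cells (4.64), and Lce6a in wound cells (10.5), HFSC (5.35) and EpdSC (12.1). Promoters of the 12 neutrophil markers had 0 peaks in each list. Among 4 macrophage markers Cd68 had a promoter peak in the tumour, wound and HFSC lists. In the HFSC list Col1a2, H2-Aa, S100b and Dct, markers of other cell types, also had one. A missing peak in a pooled list says only that the caller's threshold was not met.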

How the data were processed

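RNA values were the gene counts deposited by the authors in 1 table of 21 libraries (TruSeq total RNA, single reads of 51 cycles, per the labels), aligned with STAR to mm10 per the submitters' processing notes; the counting tool, strand setting and annotation are not given in the sources used here. Counts were tested as deposited, without the row that holds column totals, with edgeR 4.0.16 (TMM, filterByExpr, quasi-likelihood F test, 1 mean per group) in R 4.3.3, and p-values were adjusted by Benjamini and Hochberg over all genes tested, with a threshold of 0.05. Standard errors are the log2 fold change over the square root of F. CL, BK and DS libraries were fitted apart; the integrin comparison had genotype as a block. CPM used TMM factors over all 21 libraries. Scripts were tested on simulated data.

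Gene counts by Ensembl ID, also deposited by the authors for the CL libraries, served as an alternative. ATAC peaks were called with MACS2 2.1.1.20160309 at a q-value of 0.05, 1 list per population, per the file headers, on Bowtie and Picard output per the submitters' processing notes. Their fold enrichment, pileup signal and −log10 p-values are as deposited by the authors; the fold was used to describe peaks, and a −log10 q-value of at least 5 as a stricter alternative. A peak was shared at 1 base of overlap. Whether reads were shifted for the transposase is not given in the sources used here. Promoter sequences came from RefSeq (GRCm38.p6).

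Members, gene lists and tests were chosen with earlier results of these data known. Named members were Sprr1b, Sprr2d, S100a8 and S100a9, the up to 8 called members per comparison with the largest change and no overlap of groups, and the 3 per family with the highest mean CPM, and of other lists up to 4 called genes per comparison with the largest change; any other was named after its values were seen. Alternatives were DESeq2 1.42.0, its size factors, no filter, a replicate block, leaving out each library, fits of only the groups compared and the Sprr2 copies summed. Replicate numbers were not treated as pairs.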

Additional observations from a re-analysis of the deposited data

Results flagged for a closer look

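For 5 members the wound response differed between the lineages by a test of the difference itself, the response of the HFSC lineage minus that of EpdSC on the log2 scale in the CL libraries. The values were -8.44 for S100a4, -3.41 for S100a3, -2.20 for S100a1, -2.01 for S100a6 and -1.88 for Sprr1a. S100a4, S100a3 and S100a1 fell in the wounded HFSC lineage and rose in wounded EpdSC. S100a6 had 1084 and 1247 CPM in the wounded HFSC lineage, against 1540 and 1005 CPM in HFSC, and 2237 and 1767 CPM in wounded EpdSC, against 536 and 485 CPM in EpdSC. Sprr1a rose in both lineages.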

How the results depend on the processing

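Counts of called members in the wound comparisons moved little: 18 to 22 were called in the wounded HFSC lineage with 1 library left out, and 19 to 24 in wounded EpdSC. Between the wounded lineages there were 4 calls with DESeq2 size factors, 4 without the filter, 6 with DESeq2, 1 with only those 2 groups in the fit and 1 to 5 with 1 library left out. The left-out range was 1 to 7 for CL HFSC over EpdSC, 2 to 6 for the difference of wound responses, 6 to 9 for BK HFSC over EpdSC, 5 to 14 for BK wounded EpdSC, 0 to 19 for integrin high over low and 3 to 30 for tumour over Tbr stem cells. BK wounded EpdSC gave 6 calls without the filter and 7 with DESeq2. Integrin high over low gave 5 with DESeq2 size factors, 14 with DESeq2 and 0 with no block. Tumour over Tbr stem cells gave 7 with only the integrin high and stem cell libraries. By share of the list, not by number, the ratio of locus peaks turned to 0.905 for wound over EpdSC (2 by number) and to 0.704 for tumour over EpdSC (1.48 by number). With a replicate block the CL counts were 21, 23, 3, 6 and 5 in the order wounded HFSC lineage, wounded EpdSC, wounded lineages, resting lineages and difference, and the BK count was 7. The numbers share no stated source, and deviations of equal numbers correlated at -0.249 to 0.585 in CL and -0.259 in BK; a crossed replicate block in BK, added after seeing the data, gave 11. The Ensembl tables held 13.9% of the S100a4 counts of the main table and gave 22, 24, 2, 6 and 5 calls. Of values for single members and levels, 1429 stayed as they were, 108 lost a call, 62 gained one, 13 moved and 0 turned sign. The cause was not tested. Genes under about 1 CPM rest on few counts.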
